A study of Mus musculus with 6 samples.

Results

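Amino acid transporters are the membrane proteins of the SLC1, SLC3, SLC6, SLC7, SLC36, SLC38 and SLC43 families that carry amino acids and related small molecules across the plasma membrane or the lysosomal membrane. The members described here were chosen by gene symbol, as the mouse genes of these families that had a probe set listed with a single gene symbol, except Slc7a11, which has such a symbol and is given with the genes of the ATF4 response. Of 60 named genes that fit, 57 were measured among 18193 genes in all, and the others were not analysed here. The cells came from the bulge of vibrissa follicles, the whisker follicle region that houses epithelial stem cells, of mice of 7 to 8 weeks, and the strain used for the arrays was not given in the sources used here. They were divided between 2 media and grown for 6 days in 1% atelocollagen gel, in an experiment done 3 times, which gave 3 arrays for each medium. The factors common to both were Noggin, which blocks BMP signaling, SAG, which activates hedgehog signaling, FGF-7 and FGF-10, each at 50 ng/ml. NFFSE medium also contained EGF at 50 ng/ml and NFFS medium did not, so that the comparison asks how gene expression differed with and without EGF. Because whole cultures were measured, fewer cells of a type and less RNA per cell cannot be told apart.

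Cells take up essential amino acids through several kinds of carrier. Exchangers swap one amino acid for another, sodium-coupled and proton-coupled carriers accumulate them against a gradient, and facilitators let them pass down it. The system L exchangers are dimers of the heavy chain CD98 (Slc3a2) and a light chain such as LAT1 (Slc7a5), and the glutamine that sodium-coupled carriers bring in is what the exchangers trade for leucine. Amino acids inside the cell are sensed at the lysosome by mTORC1, and a shortage is sensed by the kinase GCN2, which raises translation of the transcription factor ATF4, a regulator of many transporter genes. In skin, these carriers feed the keratinocytes, and the follicle grows by protein synthesis.

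The values are array signals on a linear scale, and background was set at 22.7, the brightest of 18 signals from control probe sets for a transcript that mouse cells lack. Differences are given on the log2 scale as NFFSE minus NFFS, folds are the antilogs of these differences, and a gene was called changed where limma gave an adjusted p under 0.05 over all 18193 genes. The median signal was 56.3 to 64.8 on the NFFSE arrays and 66.2 to 70.5 on the NFFS arrays, and 19.6 to 22.8% of genes were at background on an array. The log2 difference between the 3' and 5' control probe sets of Gapdh, a sign of RNA quality, was -0.37 ± 0.011 in NFFSE and -0.62 ± 0.017 in NFFS (SD, n = 3), with no overlap, and its part in the results was not tested. For Actb the same measure was 0.27 ± 0.019 and 0.33 ± 0.059 (SD, n = 3), with overlap. Markers of follicle epithelium summed to 125400 to 147720 in NFFSE and 123180 to 145700 in NFFS, with 8 of 8 markers above background on all arrays. Of these, Itgb4, Krt14 and Epcam were called higher in NFFSE (2.29-fold, 1.77-fold and 1.57-fold) and Krt15 lower (3.94-fold). The p-values measure the spread between the 3 repeats of the experiment.

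Of the 57 transporters, 2 were called higher in NFFSE, which is 3.51%, and 12 were called lower, which is 21.1%, where 11.0% and 15.2% of all genes were called higher and lower. Together 24.6% of the transporters were called against 26.2% of all genes, a share close to that of other genes. Their median log2 difference was -0.014 against -0.011 over all genes. The arrays of the media did not overlap for 19 transporters, or 33.3%, against 40.5% of all genes. Centring each array on its median moved the median of all genes from -0.011 to 0.19. After centring, 4 transporters were called higher and 6 lower, while over all genes higher calls outnumbered lower calls. With quantile normalization 5 transporters were called higher and 12 lower. The number of lower calls thus depended on how the arrays were scaled. Besides the 14 called genes, Slc1a5, Slc38a1, Slc38a3, Slc6a14 and Slc7a12 did not overlap but were not called, and of these Slc7a12 was at background on 5 arrays. In limma, 17 of the 57 transporters had an unadjusted p under 0.05, beside 6482 of the 18193 genes in all. Of the 14 calls, those of Slc38a4, Slc43a3, Slc6a4, Slc6a9, Slc7a1 and Slc7a6, or 6 genes, were kept in each of the 16 alternative settings in which the gene was tested, and Slc43a3 was not tested where dim genes were left out. Of the other calls, that of Slc7a2 was lost in 1 setting, those of Slc7a5, Slc36a1 and Slc36a4 in 4 each, Slc6a6 in 6, Slc1a3 in 8, and Slc3a2 and Slc38a9 in 10 each.

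Split by the mean log2 signal over all 6 arrays, 13 transporters lay at or above the 60th percentile of all genes. Of these 1 was called higher and 7 lower, where 42.3% of all such genes were called, counting either direction. The shares of all genes in this split pool both directions, so they give no base for the lower calls alone. Of 15 transporters between the 40th and the 60th percentile, 1 was called higher and 4 lower, beside 34.6% of all such genes. Of 29 under the 40th percentile, 1 was called, beside 6.02% of all such genes. A transporter is called dim in what follows where its mean was under 74.0 in both media, which held for 30. Slc1a6, Slc38a5, Slc6a12, Slc6a15, Slc6a16 and Slc7a15 were at background on all 6 arrays. No fold is printed for them, and their fitted differences in the plots set background against background. Of the 57 genes, 28 were read from their single probe set and 29 from whichever of their probe sets was brightest on average (log2 signals).

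**Figure D1:**
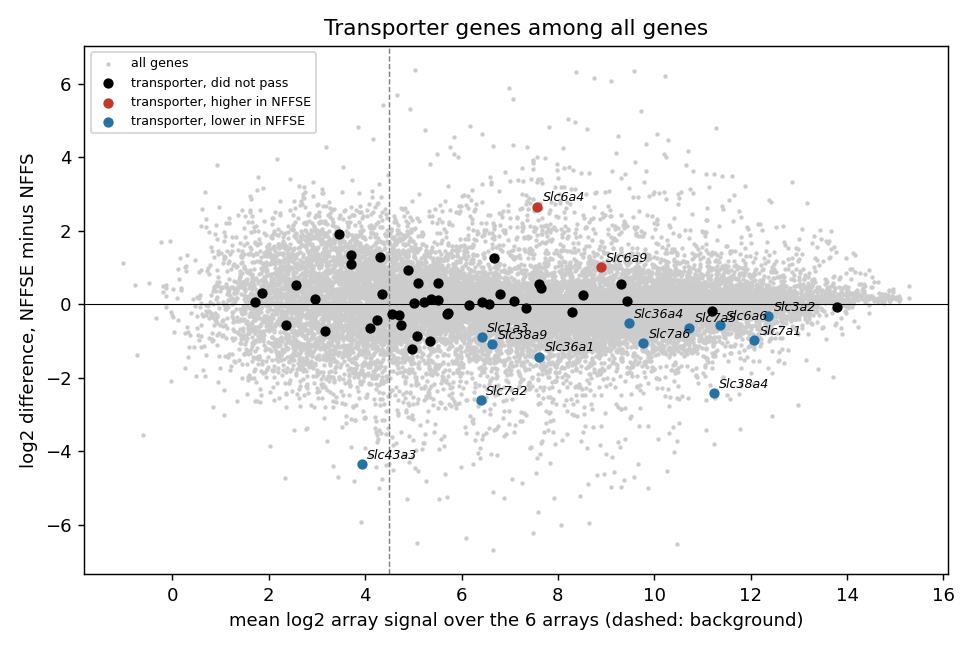
Log2 difference between the media (vertical axis, NFFSE minus NFFS) against the mean log2 signal over the 6 arrays (horizontal axis), with all 18193 genes as grey points and the 57 transporters as larger points, red or blue where called higher or lower and black otherwise. The called transporters, with Slc6a4 at 2.66 and Slc38a4 at -2.42 on the log2 scale among the named ones, lie mostly at the brighter end.

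Promoter sequences help to place the genes described next, and 3 are shown because each holds a motif of a factor linked to amino acid supply, lysosomes or growth factor signaling. Each window runs from 250 bases before to 50 bases after a RefSeq start site, on the strand of the gene, in GRCm38.p6, and capitals mark the motif. The Slc1a4 window, chr11:20332664-20332963 on the minus strand, holds the amino acid response element TGATGNAA, bound by ATF4, on its opposite strand 4 bases before the start. The Slc36a1 window, chr11:55204090-55204389 on the plus strand, holds the E-box CACGTG at 31 and 3 bases before the start. The Slc7a1 window shown, chr5:148399855-148400154 on the minus strand, holds the AP-1 motif TGANTCA at 123 bases before the start. A further Slc7a1 window, at another start site (chr5:148392766-148393065), does not hold it. Positions are those of the first base of the motif.
Slc1a4: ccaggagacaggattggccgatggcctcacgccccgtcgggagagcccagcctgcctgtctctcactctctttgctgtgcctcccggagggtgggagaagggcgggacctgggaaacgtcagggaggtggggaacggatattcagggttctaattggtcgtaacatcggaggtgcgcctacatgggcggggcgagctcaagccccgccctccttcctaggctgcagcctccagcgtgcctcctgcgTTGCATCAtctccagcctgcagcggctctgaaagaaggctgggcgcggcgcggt
Slc36a1: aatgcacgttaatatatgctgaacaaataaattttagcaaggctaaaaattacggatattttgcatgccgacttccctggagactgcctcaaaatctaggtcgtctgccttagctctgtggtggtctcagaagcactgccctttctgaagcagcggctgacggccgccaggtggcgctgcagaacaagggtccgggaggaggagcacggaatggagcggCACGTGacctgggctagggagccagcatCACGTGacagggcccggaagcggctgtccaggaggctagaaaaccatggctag
Slc7a1: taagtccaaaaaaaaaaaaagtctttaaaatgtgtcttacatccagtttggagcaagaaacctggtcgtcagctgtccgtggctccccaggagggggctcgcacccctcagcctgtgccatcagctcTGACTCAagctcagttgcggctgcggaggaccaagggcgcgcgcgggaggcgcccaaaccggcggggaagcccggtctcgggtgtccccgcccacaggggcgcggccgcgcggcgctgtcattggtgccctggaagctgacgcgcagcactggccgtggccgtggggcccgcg

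Promoters were found for 40 of the 57 transporters, as 61 windows, and among the called genes for 10 as 16 windows. The called genes without a window were Slc7a2, Slc7a5, Slc43a3 and Slc6a6. TGATGNAA, read on both strands, was in 4 of the 61 windows and 3 genes, which were Slc1a4, Slc6a21 and Slc7a7, beside 3.97% of 32851 windows of all genes. It was in 0 of the 16 windows of called genes, which are too few to set against that share. CACGTG was in 9 windows and 1 of the called ones, that of Slc36a1, beside 7.15% of all windows. TGANTCA was in 9 windows and 1 of the called ones, the Slc7a1 window shown, beside 7.81% of all windows. No motif overlapped another in the 3 windows shown, and a match describes the letters in this window alone.

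The heavy chains and their light chains form the system L and related exchangers. Of 11 measured, 3 were called lower in NFFSE (27.3%), 0 higher and 8 were not called. Over all genes 15.2% were called lower and 11.0% higher. The families described here are too small to set against these shares. Slc3a2, the CD98 heavy chain, gave 4566, 4699 and 4974 in NFFSE repeats 1, 2 and 3 and 5574, 6583 and 5656 in the same repeats of NFFS. All NFFS arrays lay above all NFFSE arrays. The mean was 4746 ± 208 (SD, n = 3) in NFFSE and 5937 ± 560.2 in NFFS, a log2 difference of -0.32 (SE 0.10) or 1.25-fold lower in NFFSE (limma, adjusted p = 0.046). The call of Slc3a2 was close to the threshold and was lost in 5 of the 6 fits that left out 1 array (adjusted p = 0.076 to 0.14 in those) and after centring on the array medians (adjusted p = 0.49). Slc7a5, or LAT1, the main importer of leucine and other large neutral amino acids, gave 1119.9, 1587 and 1426 in NFFSE and 2145, 1828 and 2433 in NFFS. Each NFFS array again exceeded each NFFSE array. With means of 1378 ± 237 and 2135 ± 303 (SD, n = 3), Slc7a5 was 1.56-fold lower in NFFSE (log2 difference -0.64, SE 0.15, limma adjusted p = 0.011), and the call was lost after centring (adjusted p = 0.076).

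Slc7a6, the y+LAT2 light chain that exchanges cationic for neutral amino acids, read 610.1, 622 and 583 in NFFSE and 1483, 1315 and 1027 in NFFS. The NFFSE arrays lay close together, and all were under the NFFS arrays. The mean of 605 ± 19.7 in NFFSE was 2.08-fold under the 1275 ± 231 of NFFS (SD, n = 3, log2 difference -1.06, SE 0.15, limma adjusted p = 4.3e-04). A further probe set of Slc7a6 also had no overlap, with a log2 difference of -0.67. In contrast to these 3 genes, Slc7a8, or LAT2, which pairs with the same heavy chain, was not called, with 717 ± 132 in NFFSE and 668 ± 36.8 in NFFS (log2 difference 0.086, 95% interval -0.25 to 0.42, limma adjusted p = 0.74). This interval leaves room for a difference of either sign, and the difference between Slc7a8 and Slc7a5 was not tested. The other 7 light and heavy chains, Slc3a1, Slc7a7, Slc7a9, Slc7a10, Slc7a12, Slc7a13 and Slc7a15, were dim and were not called. Of these, Slc3a1 (rBAT) and Slc7a9 form the cystine carrier of the kidney. Slc7a13 had a log2 difference of 1.90 with 5 of 6 arrays at background, and passed the threshold when NFFS replicate 3 was left out (adjusted p = 0.036).

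The SLC43 facilitators pass large neutral amino acids or, in the case of Slc43a3, purine bases. Slc43a3 gave 3.67, 3.07 and 3.41 in NFFSE, all at background, and 89.2, 63.2 and 58.2 in NFFS. Its means were 3.38 ± 0.305 and 70.2 ± 16.6 (SD, n = 3). It was at least 3.04-fold lower in NFFSE, the bound being set by the background (limma, adjusted p = 2.7e-04). Slc43a3 was dim in both media and was the single dim transporter that was called. Slc43a1 and Slc43a2, the LAT3 and LAT4 facilitators, were not called, and their arrays varied widely within a medium, with 193 ± 152 in NFFSE and 101 ± 98.6 in NFFS (SD, n = 3) for Slc43a2.

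The cationic transporters carry arginine, lysine and ornithine. Of 5 measured, 2 were called lower (40%), beside 15.2% of all genes. Slc7a1, the widely expressed CAT1, gave 2584, 3402 and 3272 in NFFSE and 5372, 5874 and 6992 in NFFS. No NFFSE array reached the lowest NFFS array. Its mean fell from 6079 ± 829.5 in NFFS to 3086 ± 439 in NFFSE (SD, n = 3), which was 1.97-fold lower (log2 difference -0.98, SE 0.14, limma adjusted p = 5.1e-04). The size of the change in Slc7a1 depended on the probe set, as its other probe sets gave log2 differences of -0.30 and -0.36 with overlap, and the mean of its probe sets gave -0.55 (limma, adjusted p = 0.032). Slc7a2, or CAT2, gave 45.9, 17.0 and 51.4 in NFFSE and 184, 182 and 274 in NFFS. Replicate 2 was the single NFFSE array at background, and all NFFS arrays were brighter than all NFFSE arrays. Slc7a2 was at least 5.55-fold lower in NFFSE (limma, adjusted p = 0.0014). Slc7a4, an orphan of the same family, was not called at 409 ± 69.5 against 339 ± 48.1 (SD, n = 3, log2 difference 0.26, limma adjusted p = 0.34). The mean of its 3 probe sets turned this direction, to -1.23 (limma, adjusted p = 0.041). In that mean, 1 dim probe set was at background on all 6 arrays and another gave 44.4, 49.0 and 53.6 in NFFSE and 107, 97.5 and 114 in NFFS. Slc7a3 and Slc7a14 were dim and not called.

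The SLC1 family holds the glutamate carriers EAAT1 to EAAT5 and the neutral amino acid exchangers ASCT1 and ASCT2. Of 7 members, 1 was called lower (14.3%), beside 15.2% of all genes. Slc1a3, the glutamate carrier GLAST, had means of 63.3 ± 9.09 in NFFSE and 117 ± 8.04 in NFFS (SD, n = 3), 1.85-fold lower in NFFSE with no overlap (limma, adjusted p = 0.039). That call was lost in 5 of the 6 fits without 1 array (adjusted p = 0.072 to 0.11), after centring (adjusted p = 0.11), with the replicate number as a block (adjusted p = 0.054) and over the mean of its probe sets (adjusted p = 0.27). Further probe sets of Slc1a3 gave log2 differences of -1.63, -0.90 and -3.05 without overlap, the last with 4 arrays at background. The remaining probe sets gave 0.44 and 0.79 with overlap, and had 5 and 6 arrays at background. Slc1a5, or ASCT2, the glutamine importer, gave 266, 222 and 215 in NFFSE and 198, 167 and 157 in NFFS. Every NFFSE array was above every NFFS array, by a small margin. The difference was not called, with means of 235 ± 27.5 and 174 ± 21.8 (SD, n = 3, log2 difference 0.43, 95% interval -0.0089 to 0.88, limma adjusted p = 0.15), though it passed with quantile normalization (adjusted p = 0.033).

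Slc1a4, or ASCT1, a serine and alanine exchanger whose promoter is printed above, is a case in which the probe sets of a gene disagree. On the brightest probe set it was not called, at 292 ± 23.8 in NFFSE and 339 ± 44.5 in NFFS (SD, n = 3, log2 difference -0.21, 95% interval -0.58 to 0.16, limma adjusted p = 0.42). A further probe set gave 161, 89.0 and 180.5 in NFFSE and 337, 298 and 489 in NFFS. The remaining probe set gave 110.0, 107 and 149 in NFFSE and 259, 279 and 402 in NFFS. Neither of these overlapped between the media, with log2 differences of -1.42 and -1.35, and the mean over the probe sets of Slc1a4 was called lower (log2 difference -0.99, limma adjusted p = 0.0067). Slc1a1, Slc1a2, Slc1a6 and Slc1a7 were dim and not called. A further probe set of Slc1a1 gave 33.2, 54.2 and 45.2 in NFFSE and 14.3, 22.3 and 17.5 in NFFS. It did not overlap, and all its NFFS arrays were at background. The remaining probe set of Slc1a1 overlapped, with a log2 difference of 0.11 and 3 arrays at background.

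The SLC38 carriers bring in glutamine, alanine and other neutral amino acids together with sodium. Of 9 measured, 2 were called lower (22.2%), beside 15.2% of all genes, and 7 were not called. Slc38a4, or SNAT4, an imprinted carrier of neutral amino acids known from liver and placenta, had the largest fall among the transporters above background on all 6 arrays. It gave 801, 975 and 1420.4 in NFFSE and 5161, 5154 and 6431 in NFFS. The dimmest NFFS array was well above the brightest NFFSE array. The means were 1065 ± 319.6 and 5582 ± 735 (SD, n = 3), which was 5.36-fold lower in NFFSE (log2 difference -2.42, SE 0.19, limma adjusted p = 1.5e-05). The other probe set of Slc38a4 read 640.2, 867 and 999 in NFFSE and 2441, 2164 and 3104 in NFFS, again without overlap and with a smaller log2 difference of -1.63.

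Slc38a2, or SNAT2, the carrier that cells raise when amino acids are short, showed no call. Its signals were 13265, 12614 and 15958 in NFFSE and 14008, 14593 and 14990.0 in NFFS. The NFFSE arrays spanned the NFFS arrays on both sides. With means of 13946 ± 1773 and 14530.0 ± 494 (SD, n = 3), the log2 difference was -0.066 with a 95% interval of -0.32 to 0.19 (limma, adjusted p = 0.74). Its direction depended on the scaling of the arrays, since it was called lower with quantile normalization (log2 difference -0.34, limma adjusted p = 0.031) and was 0.13 after centring (adjusted p = 0.42). Slc38a9, the lysosomal arginine sensor that signals to mTORC1, was 2.12-fold lower in NFFSE, with means of 73.0 ± 28.7 and 146 ± 19.7 (SD, n = 3, limma adjusted p = 0.047). Its 7 probe sets all had a negative log2 difference, and 3 of them did not overlap, yet the call of Slc38a9 was lost in 5 of the 6 fits without 1 array (adjusted p = 0.055 to 0.14) and after centring (adjusted p = 0.095). Slc38a1, or SNAT1, had 238 ± 38.1 in NFFSE and 161 ± 5.02 in NFFS (SD, n = 3) without overlap and missed the threshold (log2 difference 0.55, 95% interval 0.11 to 0.998, limma adjusted p = 0.068), but passed it after centring (adjusted p = 0.035). Slc38a3 had no overlap either, at 28.9 ± 2.67 against 59.8 ± 17.5 (SD, n = 3, limma adjusted p = 0.11). Slc38a5, Slc38a6, Slc38a7 and Slc38a10 were not called, and Slc38a10 had a log2 difference of -0.18 (95% interval -0.48 to 0.11). A further probe set of Slc38a10 gave -0.52 without overlap, at means of 668 in NFFSE and 968 in NFFS. Its remaining probe sets overlapped, with log2 differences from -0.27 to 1.56, the last with 4 arrays at background.

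**Figure D2:**
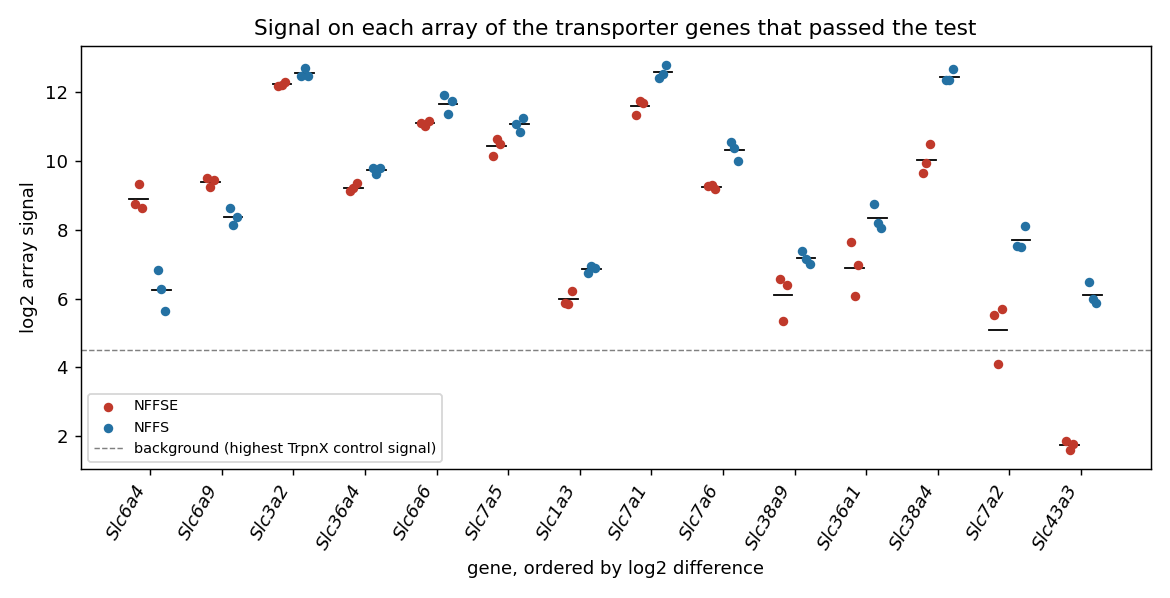
Log2 signal (vertical axis) of each of the 14 called transporters on each of the 6 arrays, with the 3 NFFSE arrays as red points, the 3 NFFS arrays as blue points, short bars for the means of the log2 signals and a dashed line at the background signal of 22.7. The media do not overlap for any of the 14 genes, and the 3 NFFSE points of Slc43a3 and 1 of Slc7a2 lie under the line.

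Some SLC36 carriers, such as Slc36a1, move small amino acids with protons, and in many cells they sit at the lysosome. Of 4 SLC36 genes measured, 2 were called lower (50%), beside 15.2% of all genes. Slc36a1, or PAT1, whose promoter with its pair of E-boxes is printed above, had means of 131 ± 67.1 in NFFSE and 328 ± 88.1 in NFFS (SD, n = 3) with no overlap. It was 2.69-fold lower in NFFSE (limma, adjusted p = 0.016), and the call was lost without NFFS replicate 1 (adjusted p = 0.071). Slc36a4, or PAT4, a carrier of proline and tryptophan, gave 554, 585 and 652 in NFFSE and 890.1, 778 and 883 in NFFS. The groups were tight and apart. Slc36a4 was 1.42-fold lower in NFFSE, at 597 ± 50.4 against 850.2 ± 62.8 (SD, n = 3, log2 difference -0.51, SE 0.13, limma adjusted p = 0.013), and the call was lost after centring (adjusted p = 0.15), without NFFSE replicate 1 (adjusted p = 0.051) and without NFFSE replicate 2 (adjusted p = 0.053). Slc36a2 and Slc36a3 were not called, with log2 differences of -0.014 and 0.0040.

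The SLC6 family couples uptake to sodium and chloride. Of its 9 measured carriers of amino acids, 1 was called higher in NFFSE (11.1%) and 0 lower, beside 11.0% and 15.2% of all genes. Slc6a9, the glycine transporter GLYT1, gave 727, 602 and 695 in NFFSE and 399, 279 and 332 in NFFS. All NFFSE arrays lay above all NFFS arrays. Its mean rose from 337 ± 59.9 in NFFS to 674 ± 65.1 in NFFSE (SD, n = 3), or 2.02-fold (log2 difference 1.01, SE 0.17, limma adjusted p = 0.0013). A further probe set of Slc6a9 gave 412, 366 and 364 in NFFSE and 135, 236 and 192 in NFFS, without overlap and with a log2 difference of 1.05. The other 8 carriers of amino acids were not called, among them Slc6a14, a broad carrier of neutral and cationic amino acids, with 56.1 ± 5.33 in NFFSE and 37.9 ± 5.90 in NFFS (SD, n = 3, limma adjusted p = 0.31). Slc6a14 was dim, and its other probe set gave 42.7, 22.8 and 36.4 in NFFSE and 0.39, 18.6 and 6.82 in NFFS. That probe set did not overlap either, and all its NFFS arrays were at background. Slc6a17, a vesicular carrier, had 88.0 ± 15.4 and 84.7 ± 16.3 (SD, n = 3), and Slc6a5, Slc6a7, Slc6a15, Slc6a16, Slc6a18 and Slc6a19 were dim. Slc6a21, for which no role is given here, was dim and not called.

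The members of the same family that carry monoamines, GABA, taurine and creatine fit the choice by symbol, though what most of them move is not a protein amino acid. Of 8 measured, 1 was called higher (12.5%) and 1 lower (12.5%), beside 11.0% and 15.2% of all genes. Slc6a4, the serotonin transporter, had the larger rise of the 2 transporters called higher. It gave 426, 642 and 396 in NFFSE and 113, 77.2 and 49.7 in NFFS. The dimmest NFFSE array was above the brightest NFFS array by a wide margin. The means were 488 ± 134 in NFFSE and 79.8 ± 31.5 in NFFS (SD, n = 3), 6.31-fold higher in NFFSE (log2 difference 2.66, SE 0.31, limma adjusted p = 1.7e-04). Beside it, the list of Schwann cell and neuron markers summed to 596 to 818 in NFFSE and 110 to 256 in NFFS, with 3 of 5 measured, and most of this sum was Tubb3, at 682 ± 116 and 176 ± 77.1 (SD, n = 3), which was 4.18-fold higher in NFFSE. Snap25 was at background on all 6 arrays. S100b, a Schwann cell marker, was lower in NFFSE without overlap but not called, at 11.9 ± 1.18 against 22.7 ± 7.47 (SD, n = 3, limma adjusted p = 0.31). It was at background on 4 of the 6 arrays, 3 of NFFSE and 1 of NFFS, so its difference lies near background. The part of these markers in the result for Slc6a4 was not tested.

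Slc6a6, the taurine transporter, gave 2181, 2071 and 2254 in NFFSE and 3830.3, 2601 and 3389 in NFFS. The NFFSE arrays were tight and lay under the wider NFFS arrays. Slc6a6 was 1.49-fold lower in NFFSE, at 2169 ± 91.9 against 3274 ± 623 (SD, n = 3, log2 difference -0.58, SE 0.14, limma adjusted p = 0.012), and the call was lost after centring (adjusted p = 0.12) and without NFFSE replicate 2 (adjusted p = 0.056). Slc6a8, the creatine transporter, was close to the threshold and again depended on the probe set. On the probe set used here it gave 972, 599 and 781 in NFFSE and 631, 494 and 469.8 in NFFS, and NFFSE replicate 2 lay under NFFS replicate 1. The log2 difference of Slc6a8 was 0.54 (95% interval 0.12 to 0.97, limma adjusted p = 0.062), and the replicate block, which pairs the cultures of a repeat, gave an adjusted p of 0.013. The other probe set of Slc6a8 gave 994, 1031 and 1047 in NFFSE and 452, 231 and 265 in NFFS, with no overlap and a log2 difference of 1.76. Slc6a2, the noradrenaline transporter, was not called at 141 ± 6.84 against 134 ± 15.0 (SD, n = 3), and Slc6a3, Slc6a11, Slc6a12 and Slc6a13 were dim and not called.

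**Figure D3:**
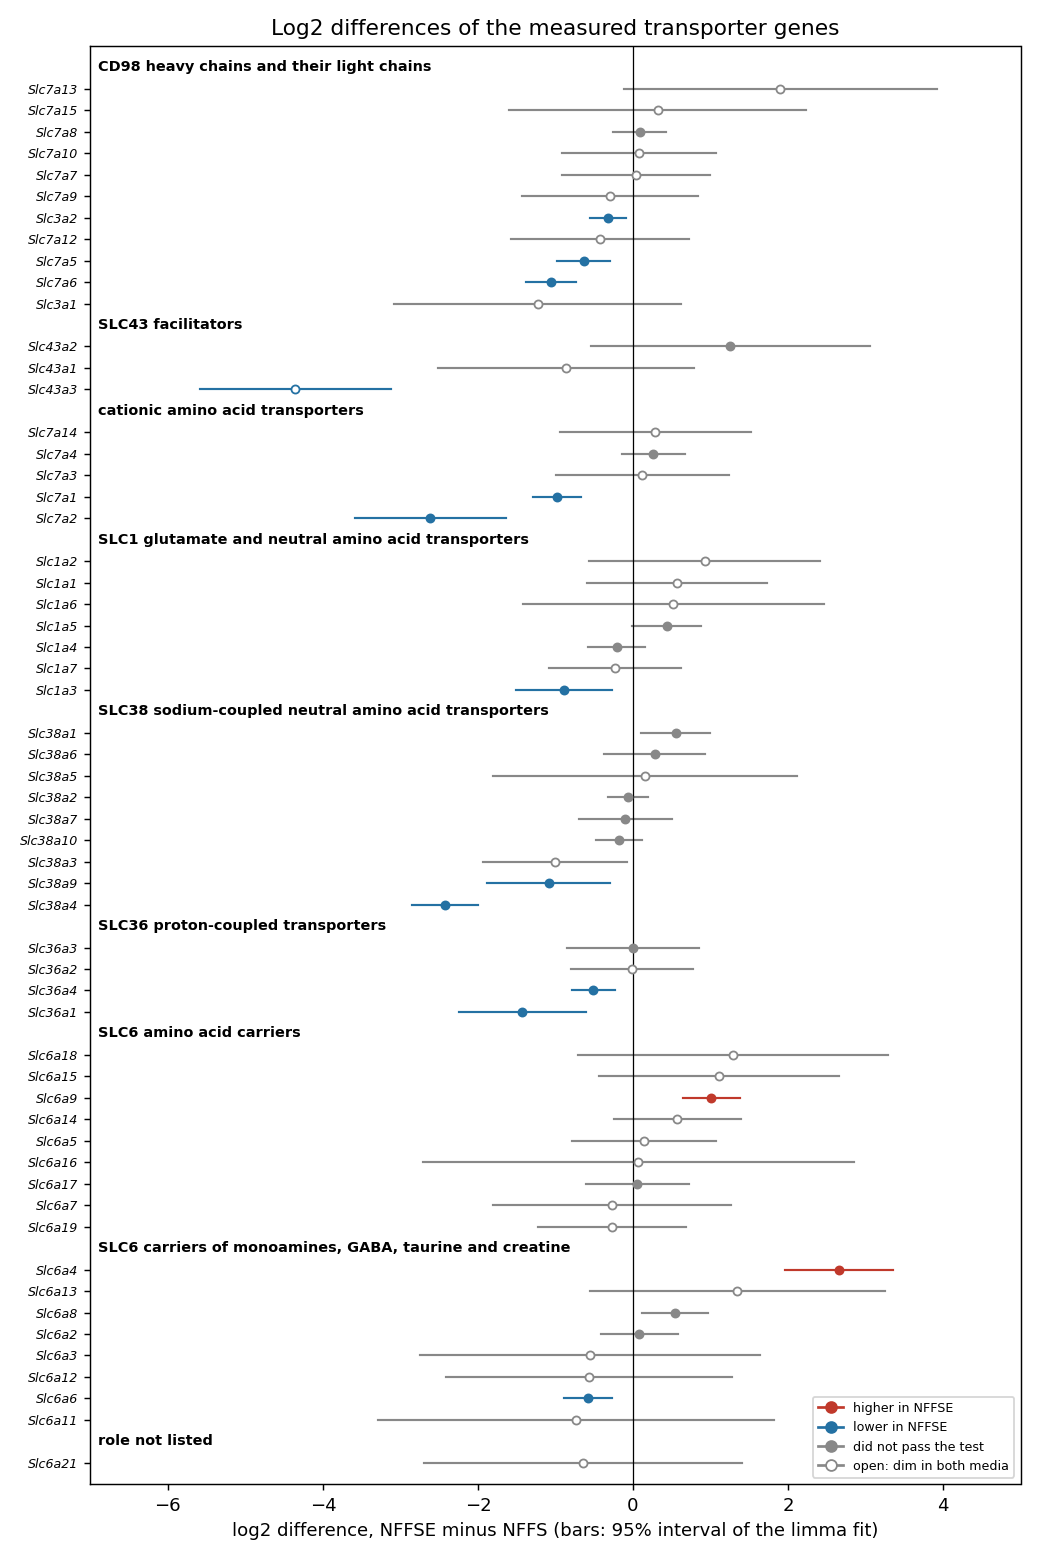
Log2 difference between the media (horizontal axis, NFFSE minus NFFS) with its 95% interval from limma for the 57 transporters, grouped by role, with called genes in red (higher) or blue (lower), the others in grey and open circles for genes dim in both media, 6 of which were at background on all arrays. Called genes on the left side of 0, such as Slc38a4 at -2.42, number 12, and on the right side Slc6a9 at 1.01 and Slc6a4 at 2.66 were called.

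Fibroblast markers summed to 487 to 502 in NFFSE and 691 to 906 in NFFS, and 3 of 8, Thy1, Col1a2 and Vim, were called lower in NFFSE, or 37.5% beside the 15.2% of all genes. Of the others, Dcn had a negative log2 difference of -0.85, and Pdgfra (1.40), Lum (0.39), Col1a1 (0.28) and Col3a1 (0.062) had positive ones, all without a call. None of the 8 was at background on all arrays. The part of these cells in the lower transporter signals was not tested. Of 7 melanocyte markers, 6 leukocyte markers and 4 endothelial markers, 0 were called at an adjusted p under 0.05 in limma, and 0, 0 and 1 had an unadjusted p under 0.05. Mlana, Cd3e and Cd207, which define melanocytes, T cells and Langerhans cells, were at background on all 6 arrays, whereas Pmel and Sox10 of the melanocyte list, and Cd74 and Lyz2 of the leukocyte list, were above it on all 6. The summed signals were 346 to 365 in NFFSE and 320 to 324 in NFFS for melanocytes, 168 to 234 and 205 to 219 for leukocytes, and 215 to 263 and 171 to 249 for endothelium.

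The genes around the transporters act in amino acid sensing and use. Of 29 measured genes of mTORC1 and its amino acid sensors, 4 were called higher (13.8%) and 6 lower (20.7%), with a median log2 difference of -0.078. Of all genes, 11.0% were called higher and 15.2% lower. In all, 34.5% of this list was called, and 23 of the 29 had a mean of at least 367 in 1 or both media. At that level 45.4% of all genes were called. Sesn3, a sestrin of the family that restrains mTORC1, was 6.83-fold lower in NFFSE, at 486 ± 27.4 against 3409.6 ± 931 (SD, n = 3, limma adjusted p = 6.2e-06). Sesn1, of the same family, was 2.37-fold lower (adjusted p = 6.1e-04) and Tsc1, a part of the complex that holds mTORC1 off, was 2.07-fold lower (adjusted p = 0.0018). The remaining sestrin, Sesn2, went the other way and was 1.87-fold higher, at 450.4 ± 69.2 against 243 ± 56.7 (SD, n = 3, limma adjusted p = 0.0077). Ddit4, an inhibitor of mTORC1 that stress induces, was 2.82-fold higher in NFFSE (adjusted p = 7.7e-05). The GCN2 and ATF4 list, with 3 higher (30%) and 1 lower (10%) of 10, had a median of 0.23. In it, the asparagine synthetase Asns was 2.07-fold higher (adjusted p = 2.0e-04), the cystine carrier gene Slc7a11 2.06-fold higher (adjusted p = 0.0015) and Trib3, an ATF4 target, 2.74-fold higher (adjusted p = 0.0031). Chac1, which degrades glutathione, was 2.03-fold lower (adjusted p = 0.044), against the direction of the other 3, and its call was lost without any single array other than NFFS replicate 1 (adjusted p = 0.086 to 0.15). Over the mean of a gene's probe sets the call of Tsc1 was lost as well (adjusted p = 0.10).

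Of 18 cytosolic aminoacyl-tRNA synthetases, which load amino acids onto tRNA, 10 were called higher in NFFSE and 0 lower, or 55.6% beside the 11.0% of all genes called higher, with a median log2 difference of 0.38. The 11.0% includes dim genes, whereas all 18 synthetases had a mean of at least 367 in 1 or both media. At that level 45.4% of all genes were called, counting either direction. The count of synthetases called higher was 13 after centring and 4 without the intensity trend in the variances. Qars was 1.79-fold higher (limma, adjusted p = 3.6e-04), Sars 1.58-fold (adjusted p = 5.8e-04), Hars 1.48-fold (adjusted p = 0.0018) and Cars 1.68-fold (adjusted p = 0.0024). The mean of a gene's probe sets ended the calls of Qars (adjusted p = 0.15) and Cars (adjusted p = 0.45).

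Among the genes of the 6 lists the largest fold was in arginine use. Arg1, which splits arginine into ornithine and urea, gave 465, 610.3 and 917 in NFFSE and 49.0, 53.6 and 47.3 in NFFS. All NFFSE arrays were far above the NFFS arrays. It was 12.8-fold higher in NFFSE, at 664 ± 231 against 49.9 ± 3.27 (SD, n = 3, limma adjusted p = 7.8e-06). Arg2, its mitochondrial counterpart, was 5.10-fold higher (adjusted p = 2.9e-04) and Odc1, which turns ornithine into the polyamine putrescine, was 4.11-fold higher (adjusted p = 2.0e-05). The arginine importers Slc7a1 and Slc7a2 were lower in the same cultures, as given above. In the list of branched chain and arginine enzymes, 4 of 12 were called higher (33.3%) and 2 lower (16.7%), beside 11.0% and 15.2% of all genes. Bckdhb, a subunit of the branched chain ketoacid dehydrogenase, was 1.98-fold lower (limma, adjusted p = 2.5e-04).

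Of 10 glutamine, glutamate and proline enzymes, 2 were called higher (20%) and 2 lower (20%), beside 11.0% and 15.2% of all genes. Glul, which makes glutamine from glutamate, was 4.68-fold lower in NFFSE (limma, adjusted p = 3.1e-04) and Got1, the cytosolic aspartate aminotransferase, was 1.97-fold lower (adjusted p = 3.4e-04). Got2, the mitochondrial form, was 1.57-fold higher (adjusted p = 9.0e-04) and Glud1, glutamate dehydrogenase, 1.38-fold higher (adjusted p = 0.0056), though the call of Got2 was lost over the mean of its probe sets (adjusted p = 0.73). Of 18 amino acid, peptide and mitochondrial carriers of other families, 5 were called higher (27.8%) and 4 lower (22.2%). The mitochondrial aspartate and glutamate carrier Slc25a13 was 1.77-fold higher (adjusted p = 0.0013), the serine carrier Sfxn1 1.63-fold higher (adjusted p = 0.0016) and the lysosomal peptide carrier Slc15a4 1.51-fold higher (adjusted p = 0.0024), while the ornithine carrier Slc25a15 was 1.64-fold lower (adjusted p = 0.0046). The mean of its probe sets turned the direction of Slc15a4, to -0.25 (adjusted p = 0.77).

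**Figure D4:**
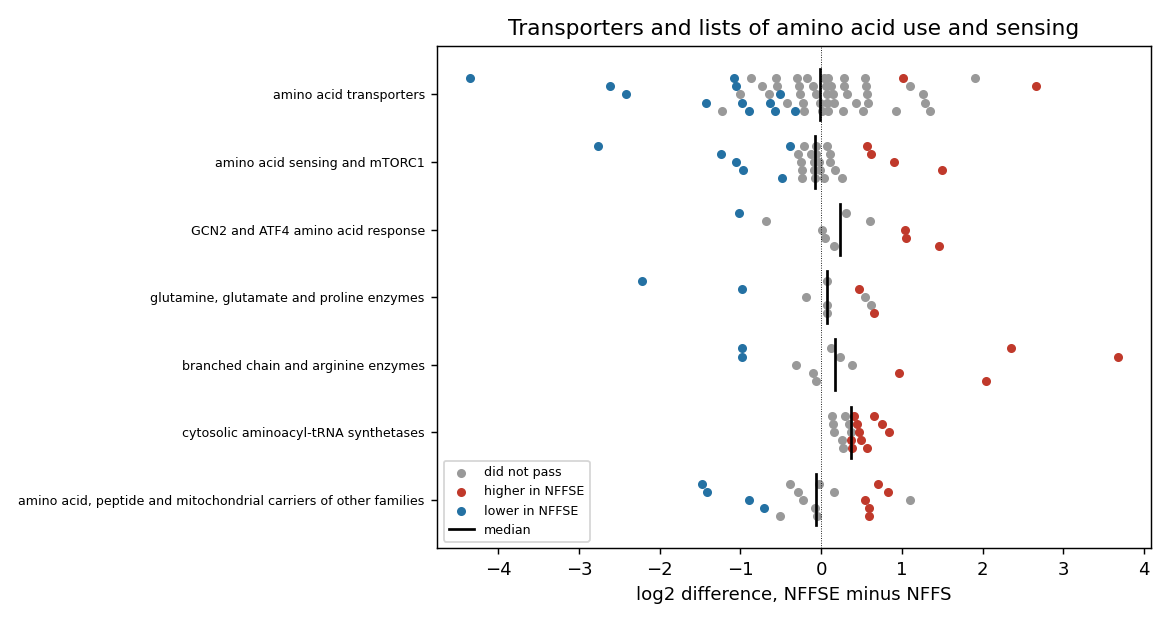
Log2 difference between the media (horizontal axis, NFFSE minus NFFS) of each gene, 1 point per gene, for the 57 transporters and the 6 lists of genes around them, with red for genes called higher, blue for genes called lower, grey for the others and a black bar for the median of a list. All 18 synthetases lie to the right of 0, with 10 called higher, whereas the transporters have 2 called higher and 12 lower, or 4 and 6 after centring.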

How the data were processed

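Bulge cells of 3 repeats were grown in either medium, and 100 ng of RNA of each of the 6 cultures was labelled for an Affymetrix array. The authors deposited linear intensity values, which MAS5 computed per the labels (its version is not given in the sources used here), and gave all arrays an equal mean once the lowest and highest 2% of signals are set aside. Of 45101 probe sets, 64 controls, 932 with several gene symbols and 9160 without a listed gene were left out, and 34945 with 1 symbol gave 18193 genes, with the brightest probe set by mean log2 signal standing for a gene. The gene numbers of 34741 of these probe sets were found in the table of GRCm38.p6.

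A linear model of log2 signals was fitted in limma 3.58.1 (R 4.3.3) with moderated variances and an intensity trend. The same fit was then run on simulated data, and its outcome is not given here. P-values were adjusted by Benjamini-Hochberg over all genes, and those under 0.05 were called. Tables and plots were made with Python 3.11.15, pandas 2.3.3, numpy 2.4.6 and matplotlib 3.10.9. Where arrays of the dimmer medium were at background, the fold is a bound against the higher of 22.7 and the array's own signal. The number of arrays limits the precision.

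Every transporter could be named. Signals on each array are given for called transporters that reached the 60th percentile of signal and for Slc3a2, Slc7a5, Slc1a5 and Slc38a2, and up to 4 called genes with the smallest p are named in each list of related genes. Sesn2, the marker genes named, further signals and further probe sets were chosen after their values were seen. The members and lists were chosen with earlier results of these data known. Arrays of equal replicate number were treated as pairs, because the series design divides the cells of each repeat between the media. Deviations from the group means correlated at 0.066, 0.042 and 0.037 within the pairs over all genes, and at 0.28, 0.13 and 0.15 without dim genes. The main fit did not use the pairs. Alternatives were the mean of all probe sets of a gene, arrays centred on their medians, quantile normalization, a floor at background, a pseudocount of 16, dim genes left out under the 40th percentile, no intensity trend, the methods' t-test, a replicate block, and each array left out. The choice of probe set by linear mean was added after seeing the data. Promoter sequences are from RefSeq.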

Additional observations from a re-analysis of the deposited data

How the results depend on the processing

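Of the transporters, 2 were called higher and 12 lower in NFFSE. The higher count was 4 after centring, 5 with quantile normalization and 4 without dim genes, and 2 to 3 when 1 array was left out. The lower count was 6 after centring, 7 with the floor, 6 without the intensity trend, 6 with the methods' t-test after Benjamini-Hochberg adjustment, and 7 to 10 when 1 array was left out, with 7 without NFFSE replicate 2. Over all genes 2002 were called higher and 2771 lower. The higher count was 1323 without the trend and 1262 with the methods' t-test, and the lower count was 1784 after centring and 1702 with the methods' t-test, where 1403 to 2099 higher and 2132 to 2704 lower were called when 1 array was left out. After centring, 2916 genes were called higher. With the replicate block, which uses the pairing, 3 transporters were called higher and 11 lower, and 2171 and 2967 of all genes. The block ended the call of Slc1a3 and made that of Slc6a8, and changed no other call of a transporter. None of the 14 called transporters turned its direction in any setting, and 23 of the 43 others did so in at least 1. Among the genes described above it turned for Slc7a4 with the mean of its probe sets (-1.23 on the log2 scale), for Slc38a2 after centring (0.13) and without NFFSE replicate 2 (0.0024, in a range of -0.17 to 0.0024 when 1 array was left out), and for Slc15a4 with the mean of its probe sets (-0.25). Slc38a10 (-0.32 to 0.063), Slc7a8 (-0.046 to 0.29), Slc38a7, Slc36a2 and Slc36a3 also turned without a call in any setting, while Slc38a2 was called lower with quantile normalization (-0.34, adjusted p = 0.031), and the cause was not tested. Calls lost under the methods' t-test include that of Slc7a2 (adjusted p = 0.051). Of the 57 transporters, 30 were dim, and for these the signal over background limits what can be seen.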
